A study of Arabidopsis thaliana with 9 samples.

Results

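Calmodulin-like proteins are small calcium sensors of plants. A stress, touch or hormone signal raises free calcium in the cytosol, the EF-hand loops of calmodulin and its relatives bind it, and the loaded protein changes shape and docks onto kinases, transporters or transcription factors. Plants hold a few near-identical calmodulins and a larger, more divergent family of calmodulin-like (CML) proteins, many of which are themselves transcribed in response to stress. The report concerns 10 of these genes, chosen by locus: CML8, CML9, TCH3 (also CML12), TCH2 (also CML24), CML37, CML38, CML39, CML42, CML43 and AT3G01830, which the reference table leaves without a name. The table calls CML8 and CML9 by the symbols CAM8 and CAM9, and it lists CML39 as a synonym both of CML37 (AT5G42380) and of AT1G76640, so CML39 here stands for AT1G76640 only. They were 10 of 25426 loci matched on the array, with 15 probes in all, and 9 of them passed the filter on dim probes.

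The samples were whole seedlings, root and shoot, of 4-week-old wild-type *Arabidopsis thaliana* (Col-0). One group received 150 mM NaCl, a second group received 10 μM of the stress hormone abscisic acid (ABA), and the third was the control, irrigated with water under normal conditions, all collected at 6 h with 3 one-colour Agilent arrays each. GEO's design text speaks of independent experiments on different plants, whereas the study's methods describe pooled seedlings split into portions, so replicates may differ less than separate plants would. Values are log2 signals, quantile-normalized over the 9 arrays, and changes are log2 fold changes of the first-named group over the second from 1 limma fit. A gene was called when its adjusted p (Benjamini-Hochberg over all genes tested) was under 0.05 and its fold change at least 2.

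Between 68.9% and 72.0% of probes were well above background on each array, and no spot was saturated. The 3 NaCl arrays shared a slide of their own and were scanned 235 days before the other 6 arrays. NaCl treatment, slide and scan day therefore cannot be told apart. The ABA and control arrays were scanned on the same day but on different slides, so ABA treatment and slide cannot be told apart. The median replicate SD over all genes was 0.286 for NaCl, 0.223 for ABA and 0.255 for control, and the limited number of arrays bounds the precision of every value. Of 7 ABA-responsive marker genes tested, 7 were called higher under NaCl, beside 9.93% of all genes, and 6 under ABA, beside 0.842%. This list was chosen with earlier results of these data known, so the counts describe it and are no independent check of the treatments.

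Most of these sensors were called in NaCl seedlings and 1 in ABA seedlings. Against control, CML37, CML38, CML39, AT3G01830 and TCH2 were called higher in NaCl, and TCH3 and CML42 lower. That made 7 calls among the 9 genes tested, beside 23.2% of all genes tested. The 5 calls upward stand beside 9.93% of all genes called higher and the 2 downward beside 13.3% called lower. Under ABA only CML42 was called, and it was lower, beside 1.57% of all genes called, with 0.842% higher and 0.732% lower. The median log2 fold change of the 9 genes was 2.09 under NaCl and -0.14 under ABA. Over all genes the median was -0.11 in both comparisons. A gene that was not called is not thereby shown to be unchanged. The members were chosen with earlier results of these data known, so these counts only describe them.

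**Figure D1:**
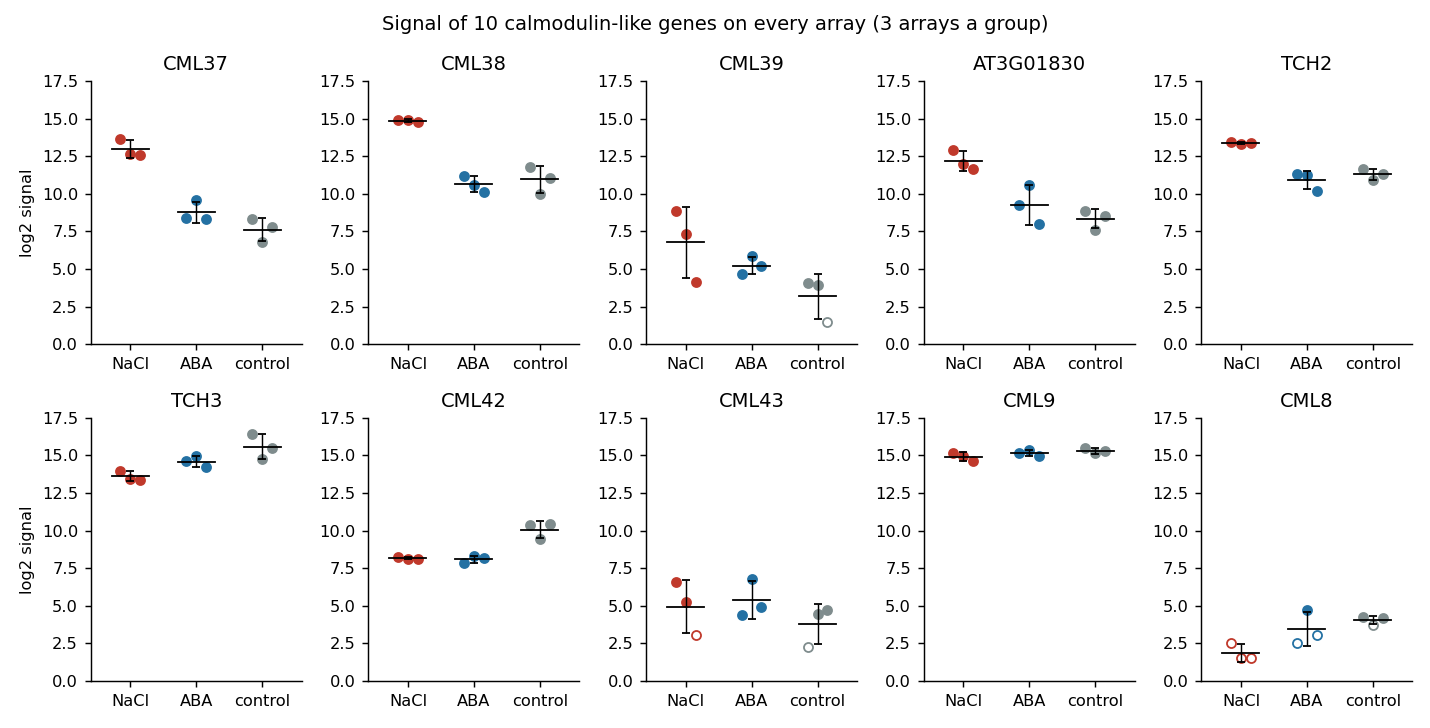
Log2 signal (vertical axis) of the 10 genes in NaCl, ABA and control seedlings. Each point is 1 array, drawn in the order of replicates 1 to 3, open where the probe was not well above background, and the bars give the mean and SD. CML37, CML38, AT3G01830 and TCH2 stand apart in NaCl, and CML42 is low in both treatments.

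CML37, a sensor known from *Arabidopsis* defence against herbivores and from drought responses, had the largest change of the 10 genes. Its signal was 13.65, 12.65 and 12.58 in NaCl seedlings, 8.39, 9.59 and 8.32 in ABA seedlings and 8.32, 6.79 and 7.76 in control seedlings. All NaCl arrays lay far above all others, while the lowest ABA array fell just within the control range. The log2 fold change was 5.33 ± 0.50 (SE) for NaCl against control, a 40.3-fold rise (95% confidence interval 18.0 to 90.2, limma adjusted p = 3.70e-04), which ranked 71 from the top among 22816 genes. For ABA against control it was 1.14 (adjusted p = 0.277), with an interval from -0.02 to 2.30. A second CML37 probe gave 5.17 for NaCl and 0.97 for ABA.

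CML38 and CML39 are neighbours on chromosome 1 of the TAIR10.1 assembly. CML38, known in *Arabidopsis* as a gene of the low-oxygen response, had signals of 14.88, 14.93 and 14.75 in NaCl seedlings, 11.19, 10.60 and 10.13 in ABA seedlings and 11.81, 9.99 and 11.08 in control seedlings. The NaCl arrays were nearly equal and separate from the rest, and the ABA and control arrays overlapped. NaCl raised it 14.8-fold (interval 7.29 to 30.2, adjusted p = 7.19e-04). Its log2 difference between ABA and control was -0.32, with an interval from -1.35 to 0.70 (adjusted p = 0.751), and the sign turned without scaling between arrays.

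CML39, linked in *Arabidopsis* to early seedling growth, was far dimmer and far more variable. It measured 8.83, 7.32 and 4.16 in NaCl seedlings, 4.66, 5.83 and 5.20 in ABA seedlings and 4.09, 3.95 and 1.48 in control seedlings, the last of these not well above background. NaCl replicate 3 lay just above the highest control array, and all ABA arrays lay above all control arrays. The NaCl change was called at 3.60 ± 1.17 (adjusted p = 0.0411). That call was lost on leaving out any array other than NaCl replicate 3, with adjusted p up to 0.121 and log2 fold changes down to 2.57 (without NaCl replicate 1). Without NaCl replicate 3 it became 4.90 (adjusted p = 0.00540). CML39 passed the filter through the 2 treated groups. With probes required to be above background on all 9 arrays it was not tested, and 6 members were called, beside 4288 of 20175 genes. The ABA change was 2.06 (adjusted p = 0.399).

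AT3G01830 followed the pattern of CML37. It had signals of 12.89, 11.96 and 11.65 in NaCl seedlings, 9.24, 10.62 and 7.97 in ABA seedlings and 8.88, 7.63 and 8.54 in control seedlings. No NaCl array overlapped with another group, and the ABA arrays spread across the control range and above it. The NaCl rise was 14.1-fold (interval 4.89 to 40.8, adjusted p = 0.00367), and the ABA change was 0.93 (adjusted p = 0.509). Its other probe was not well above background on any array, so the result rests on 1 probe. In the TAIR10.1 assembly the locus overlaps AT3G01840 and a long non-coding RNA gene, neither of which was tested here.

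The touch genes TCH2 and TCH3, first found as transcripts that rise when an *Arabidopsis* plant is touched or sprayed, moved in opposite directions under salt. TCH2 had signals of 13.43, 13.34 and 13.38 in NaCl seedlings, 11.33, 11.23 and 10.21 in ABA seedlings and 11.65, 10.92 and 11.31 in control seedlings. The NaCl arrays again formed a tight group above all others. TCH2 rose 4.25-fold under NaCl (95% interval of the log2 fold change 1.37 to 2.81, adjusted p = 0.00202). Its 2 other probes gave log2 fold changes of 2.40 and 1.45. Under ABA it changed by -0.37 (adjusted p = 0.58, interval -1.09 to 0.35), with the opposite sign when arrays were not scaled. The TCH2 gene overlaps AT5G37760 and lies next to the calmodulin gene CAM1, whose log2 fold change under NaCl was 0.07 (adjusted p = 0.757).

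TCH3, which carries more EF hands than an ordinary calmodulin, had signals of 13.99, 13.44 and 13.39 in NaCl seedlings, 14.60, 14.96 and 14.19 in ABA seedlings and 16.42, 14.79 and 15.51 in control seedlings. The NaCl arrays were the lowest, and the ABA arrays lay above them and overlapped only with control replicate 2. NaCl lowered it by 1.97 on the log2 scale (SE 0.41, adjusted p = 0.00710). The ABA difference was -0.99 (interval -1.93 to -0.06) and was not called (adjusted p = 0.245). A second probe gave -2.12 for NaCl and -1.10 for ABA. TCH3 sits in a cluster on chromosome 2 between AT2G41090, another calmodulin-like gene, and the calmodulin gene CAM2. AT2G41090 fell under NaCl by 2.06 (adjusted p = 0.0033), and CAM2 had a log2 fold change of -0.69 (adjusted p = 0.0447), below the required fold. TCH3 also overlaps AT2G41105 and a long non-coding RNA gene, and what these contribute to its probes was not tested.

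**Figure D2:**
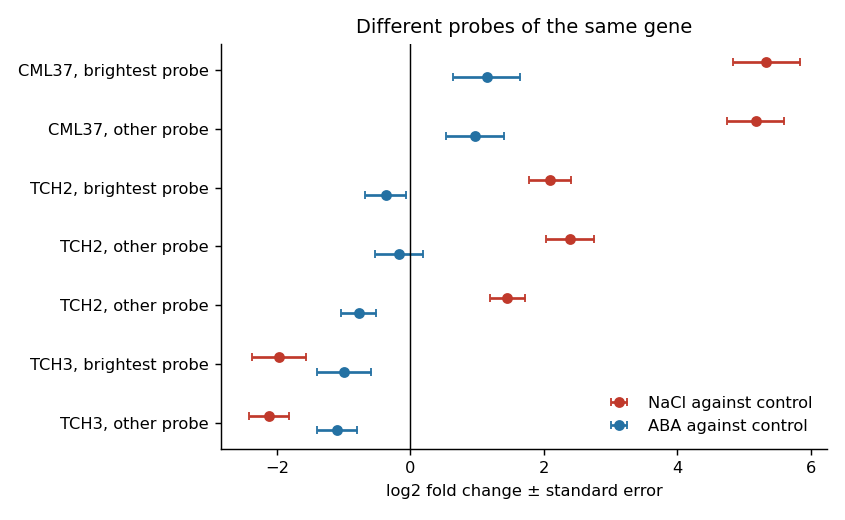
Log2 fold change ± standard error (horizontal axis) for each kept probe of CML37, TCH2 and TCH3, for NaCl and ABA against control. Probes of a gene share a direction in both comparisons, and for TCH2 the NaCl estimates run between 1.45 and 2.40.

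CML42, known in *Arabidopsis* for roles in trichome branching and herbivore defence, was the gene called lower in both treatments. Its signals were 8.26, 8.13 and 8.13 in NaCl seedlings, 7.83, 8.30 and 8.15 in ABA seedlings and 10.38, 9.41 and 10.41 in control seedlings. All 6 treated arrays lay within a narrow range below the lowest control array. NaCl lowered it by 1.89 (SE 0.28, adjusted p = 0.00178), and ABA lowered it by 1.97 (SE 0.28, adjusted p = 0.0167), from comparisons that share the 3 control arrays. The ABA value ranked 115 from the bottom of 22816 genes. The ABA call was lost on leaving out control replicate 1, control replicate 3 or any 1 ABA array (adjusted p up to 0.0775), while the log2 fold change stayed between -2.30 and -1.80.

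CML43, known in *Arabidopsis* from responses to pathogens, was dim and uneven. It measured 6.55, 5.23 and 3.05 in NaCl seedlings, 4.38, 6.78 and 4.95 in ABA seedlings and 2.28, 4.42 and 4.71 in control seedlings. NaCl replicate 3 and control replicate 1 were not well above background, so CML43 passed the filter through ABA alone. The groups overlapped. Neither the NaCl difference of 1.14 (interval -1.26 to 3.54, adjusted p = 0.408) nor the ABA difference of 1.56 (interval -0.84 to 3.96, adjusted p = 0.477) passed the test, and the intervals leave room for large changes either way.

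CML9, for which *Arabidopsis* mutants with altered ABA and salt responses are known, had signals of 15.18, 14.95 and 14.62 in NaCl seedlings, 15.14, 15.38 and 14.98 in ABA seedlings and 15.51, 15.14 and 15.27 in control seedlings. The 3 groups overlapped. The differences were -0.39 for NaCl (interval -0.83 to 0.05, adjusted p = 0.138) and -0.14 for ABA (interval -0.58 to 0.30, adjusted p = 0.755), so a 2-fold change of this bright probe lay outside both intervals of the fit. In the deposited series table, where NaCl columns were normalized apart and the median of all genes was -0.95, CML9 was called lower in NaCl at -1.33 (adjusted p = 4.79e-04).

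CML8, a sensor of bacterial defence in *Arabidopsis*, did not pass the filter. Its probe was well above background on 0 of 3 NaCl arrays, on 1 of 3 ABA arrays and on 2 of 3 control arrays, with signals of 2.55, 1.50 and 1.52 in NaCl seedlings, 2.52, 4.71 and 3.07 in ABA seedlings and 4.27, 3.72 and 4.17 in control seedlings. The NaCl arrays lay below the control arrays and overlapped with the ABA arrays. With NaCl at background the size of the difference is uncertain. A fit of 34256 genes with no filter gave -2.20 for NaCl against control (limma adjusted p = 0.0281). With NaCl values raised to at least the lowest signal called above background on each array, CML8 was 3.13-fold lower in NaCl. That is no strict bound, since control replicate 2 at 3.72 was not well above background either.

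**Figure D3:**
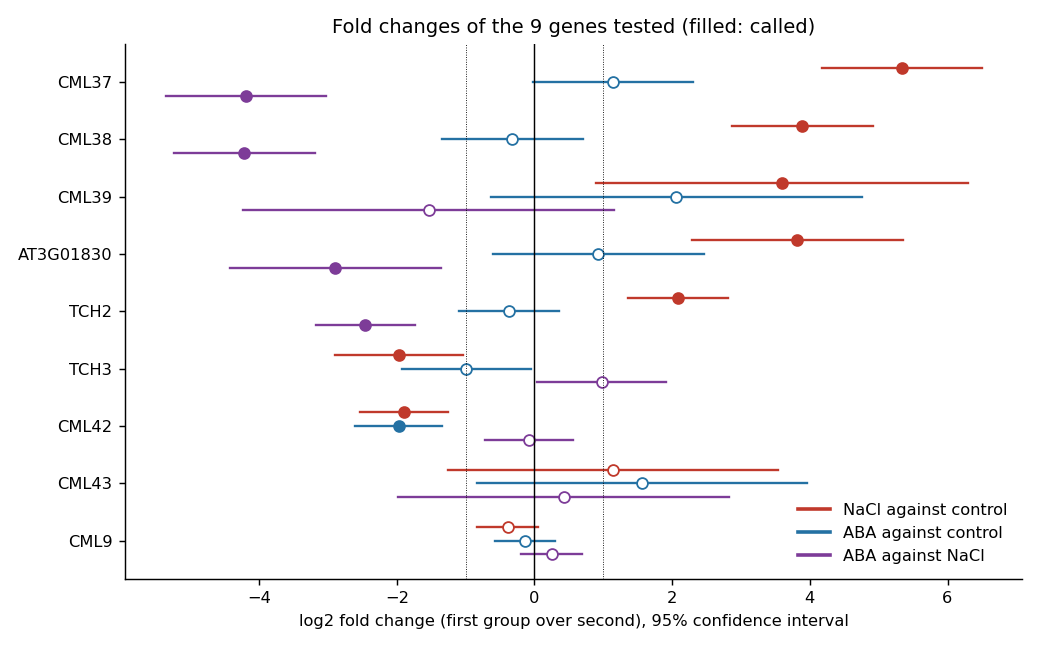
Log2 fold changes (horizontal axis) of the 9 genes tested, with 95% confidence intervals, for each treatment against control and for ABA against NaCl. Filled points were called, and the dotted lines mark a 2-fold change. The widest intervals belong to CML39 and CML43, the dimmest of the genes tested.

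Counted without a test, NaCl and control arrays did not overlap for 7 of the 9 genes, the same number as were called, beside 52.9% of all genes. ABA and control arrays did not overlap for 2 of them, CML39 and CML42, beside 29.6% of all genes. A direct comparison of the treatments found 4 genes called lower in ABA than in NaCl and none higher, beside 20.3% of all genes called, with 10.4% higher and 9.82% lower. The log2 fold change of ABA against NaCl was -4.22 for CML38 (adjusted p = 7.06e-04), -4.19 for CML37 (adjusted p = 0.00110), -2.89 for AT3G01830 (adjusted p = 0.0125) and -2.46 for TCH2 (adjusted p = 0.00134). For CML42 the 2 treatments differed by -0.08, with an interval from -0.71 to 0.56. TCH3 was higher in ABA by 0.98 (interval 0.04 to 1.91) without passing the test (adjusted p = 0.0950), although its ABA and NaCl arrays did not overlap. Its second probe passed at 1.02 (adjusted p = 0.0303 over probes), and TCH3 was called higher in 3 of 15 other settings, at up to 1.99. Without scaling, and likewise with the series table, TCH3 and CML9 were called higher in ABA than in NaCl. In these 2 settings the median of all genes was itself 0.78 and 0.91, and 90.8% and 92.7% of all calls were higher. With the dimmest kept probe 1 member, TCH3, was called higher. Such separation held for 5 of the 9 genes between ABA and NaCl, beside 52.1% of all genes.

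Across the 9 arrays TCH2, CML37, CML38 and AT3G01830 correlated with each other at r = 0.894 to 0.982, with TCH2 and CML38 the highest pair. CML39, also called higher in NaCl, correlated less, at 0.519 with TCH2, 0.553 with CML38, 0.723 with CML37 and 0.722 with AT3G01830. Of the genes that fell, TCH3 correlated with CML42 at 0.812 and with CML9, which was not called, at 0.865. These values describe arrays that share groups and normalization. The genes most like each member over the same 9 arrays were sought among all genes tested. For TCH2 they were AT1G07135 (r = 0.993), AT5G51190, listed as ERF105 (0.992), and CYP707A3 (0.987), which encodes an ABA-degrading enzyme. For CML38 they were ERF13 (0.990), AT3G60910 (0.990) and the NAC factor TIP (0.989). For CML37 they were AT5G01670 (0.991), AT1G67880 (0.988) and BAP1 (0.986). AT3G01830 was most like a probe with no locus, TA30554_3702 (0.992), then LYK5, a receptor of chitin (0.981), and AT3G14060 (0.981). CML39 had the weakest likeness, with CYP71B26 (0.962), TRM18 (0.954) and AT3G63340 (0.954). TCH3 was most like AT1G78410 (0.982), AT5G46910 (0.980) and AT5G45060 (0.976), and CML42 like a probe with no locus, TC366057 (0.977), RFO1 (0.975) and AT4G17070 (0.974).

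Other calcium-signalling genes were counted from the same fit. The calmodulins CAM1 to CAM7, the shared core sensors, had 1 call in 7 under NaCl, or 14.3% beside 23.2% of all genes. CAM5 was lower by 1.03 (adjusted p = 0.00390), and the median log2 fold change of the list was -0.18. Among 25 other calmodulin-like genes tested, of 39 listed, 5 were called higher and 1 lower, with a median of 0.49. That share of 24% is near the 23.2% of all genes. CML23, the closest relative of TCH2, had the highest value of them at 5.30 (adjusted p = 0.00181), followed by AT3G59440 at 2.79 (adjusted p = 0.00143) and MSS3 at 2.39 (adjusted p = 7.47e-04). In ABA seedlings none of these 25 genes was called, and CML23 had a log2 fold change of 1.03 (adjusted p = 0.530).

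The CBL calcium sensors, which act through CIPK kinases, had 1 call in each direction among 7 tested under NaCl. This share of 28.6% is near the 23.2% of all genes called. CBL1 was higher by 2.32 (adjusted p = 0.00371), and CBL10, part of salt tolerance in the shoot, fell by 1.14 (adjusted p = 7.11e-04). None of the 6 CAMTA factors, which bind calmodulin and DNA, was called. Of 17 calcium channels and pumps, 1 was called higher and 5 lower, or 35.3% in all. Of all genes, 9.93% were called higher and 13.3% lower. The calcium pump gene ACA8 was higher by 1.89 (adjusted p = 0.00760), while MCA2, a gene for mechanosensitive calcium entry, fell by 2.88 (adjusted p = 0.00388), AT3G63380 by 2.00 (adjusted p = 0.0432) and the vacuolar pump gene ACA11 by 1.58 (adjusted p = 0.00216). In ABA seedlings limma called 0 genes in all 5 lists, beside 1.57% of all genes. At an unadjusted p under 0.05 with a 2-fold change limma called 3, beside 5.5% of all genes. The methods' t-test, also unadjusted, called 1, beside 852 of 22816 genes.

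**Figure D4:**
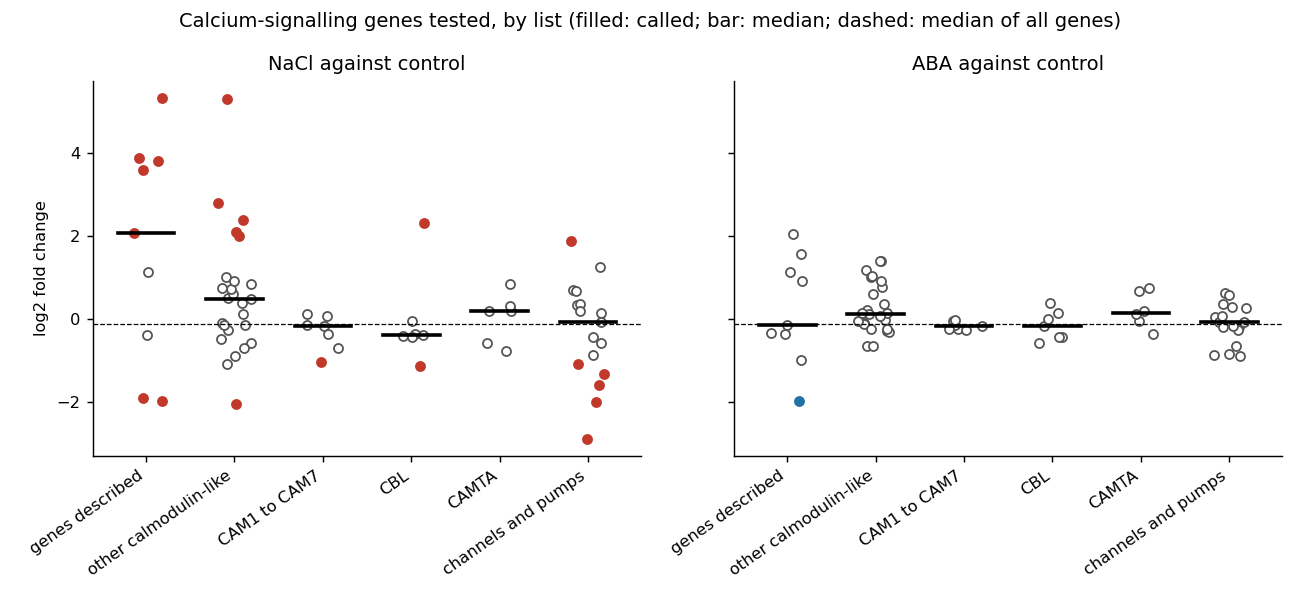
Log2 fold change (vertical axis) of each calcium-signalling gene tested, by list, for NaCl against control (left) and ABA against control (right). Filled points were called, bars are list medians and the dashed line is the median of all genes at -0.11. CML37 at 5.33 and CML23 at 5.30 are the highest points, both in NaCl.

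Other markers moved with NaCl in the same libraries. These lists too were chosen with earlier results of these data known. The rapid stress markers, which include the touch gene TCH4, were called higher for 7 of 7 genes, beside 9.93% of all genes. Their median was 2.92, and their mean signal was 14.13 to 14.81 in NaCl seedlings, 10.21 to 10.94 in ABA seedlings and 9.91 to 10.73 in control seedlings. The low-oxygen markers were called higher for 6 of 8 genes with a median of 4.64, and their mean signal was 12.06 to 13.20 in NaCl seedlings, 6.93 to 10.15 in ABA seedlings and 7.50 to 9.10 in control seedlings. No array of another group reached the NaCl range of either list. Of 8 jasmonate and wounding markers, 1 was called higher and 3 lower in NaCl, or 50% beside 23.2% of all genes. Their median was 0.34 in NaCl, and 0 were called in ABA against control. The mean signal of the 6 with a value on all arrays was 12.89 to 13.71 in NaCl seedlings, 13.54 to 13.75 in ABA seedlings and 12.08 to 14.39 in control seedlings, so the groups overlapped. The part of these lists in the changes of the calmodulin-like genes was not tested.

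Markers of root tissue also differed. Of 9 tested, 4 were called higher in NaCl against control, beside 9.93% of all genes, with a median of 3.14, and 0 lower. Of 7 shoot markers 2 were called lower and 0 higher, with a median of -0.45, and this share of 28.6% is near the 23.2% of all genes. In bulk samples, fewer cells of a type and less RNA per cell cannot be told apart. The mean root marker signal was 9.37, 8.18 and 6.24 in NaCl replicates 1, 2 and 3, 3.42 to 4.96 in ABA seedlings and 4.54, 6.19 and 4.93 in control replicates 1, 2 and 3. The root markers AT5G17820 and SHV2 were well above background on 3 of 3 NaCl arrays, 0 of 3 ABA arrays and 1 of 3 control arrays. They passed the filter through NaCl alone. RCI3, AT3G01190, AT4G30170 and MYB36 were well above background on every NaCl array and on fewer ABA and control arrays. The filter thus kept markers that were high in NaCl, and the counts of calls cannot be read apart from it. In ABA against NaCl, 8 of the 9 markers were called lower, beside 9.82% of all genes. The mean shoot marker signal was 15.59 to 15.64 in NaCl seedlings, 15.83 to 15.95 in ABA seedlings and 15.89 to 16.15 in control seedlings. CML37, AT3G01830, CML39, CML43, TCH3 and CML9 were, like the root markers, highest in NaCl replicate 1 and lowest in NaCl replicate 3. CML38, TCH2 and CML42 were not in that order. The order was not particular to root markers. It also held for the mean signals of the rapid stress markers, ABA-responsive markers, other calmodulin-like genes and CBL sensors. The low-oxygen, shoot and jasmonate markers, the calmodulins, the CAMTA factors and the channels and pumps did not follow it. The part of root content in any member's values was not tested.

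**Figure D5:**
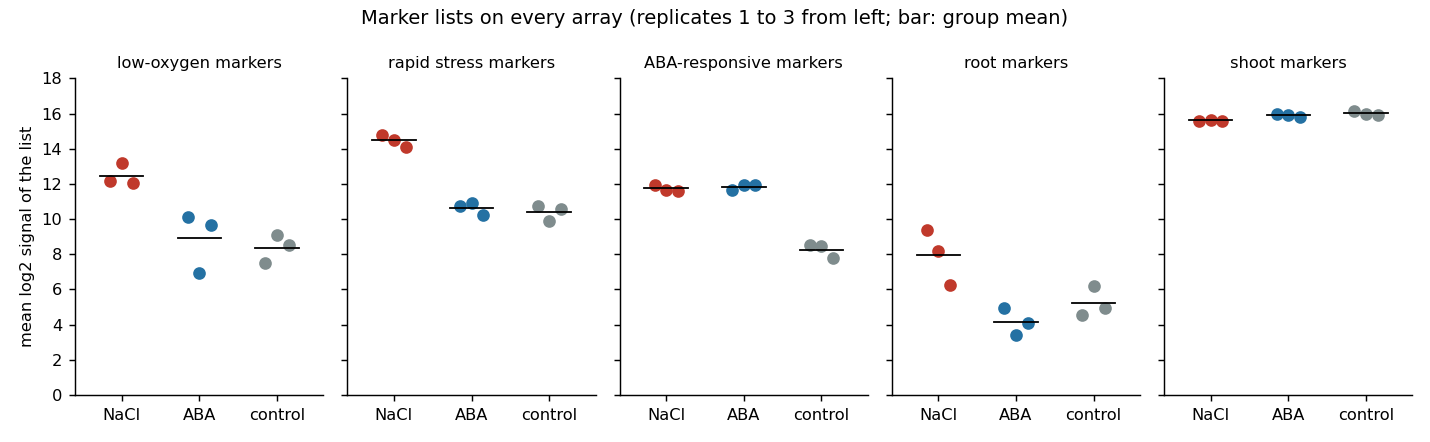
Mean log2 signal (vertical axis) of the genes of 5 marker lists measured on all arrays, in NaCl, ABA and control seedlings. Each point is 1 array and each bar a group mean. Low-oxygen and rapid stress markers are high in NaCl, ABA-responsive markers are high in both treatments, and root markers range from 6.24 to 9.37 among the NaCl arrays.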

How the data were processed

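RNA of 3 control, 3 ABA and 3 NaCl samples was measured on one-colour Agilent arrays. The deposited intensity values came from Agilent Feature Extraction 10.7.3.1 per the file headers, with background subtracted, spatial trends removed and no scaling across arrays. Each spot's raw and background intensity and its 0 or 1 flags were deposited too. The authors' log2 values in the deposited series table share a quantile distribution among control and ABA columns and another among NaCl columns (median 6.79 against 7.65), and its ABA columns are ordered differently from the array files, so it served only as an alternative.

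Non-uniform and outlying spots were left out. Probes were matched by accession to loci of the TAIR10.1 reference annotation (34392 of 43603 non-control probes, 25426 loci). Since the array was annotated on another release, no coordinates are given. The log2 intensities of the 9 arrays were quantile-normalized together. Probes counted as measured if well above background on every usable array of 1 group or more, and each gene was represented by its brightest such probe. This gave 22816 genes to test, of which 3747 matched no locus. A single limma fit of all 9 arrays (limma 3.58.1, R 4.3.3, with the data.table package, version 1.17.8) gave the 3 comparisons, with Benjamini-Hochberg adjustment over all genes and 2.04 prior degrees of freedom. The fit was tested on simulated data. The fold given for CML8 raised NaCl signals to at least the lowest signal called above background on each array. Python 3.11.15 with pandas 2.3.3 and matplotlib 3.10.9 drew the figures.

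The members and gene lists were chosen with earlier results of these data known. Named genes were the 10 members, up to 4 called genes per calcium list and comparison with the largest change, and the 3 genes most correlated with each called member; CAM1, CAM2 and AT2G41090 were named as neighbours of members. The alternatives changed scaling, background correction, values, filter, probe choice, masked spots, block, array weights, samples, test, call rule and, 1 at a time, each array. Sequence features of the members were not analysed here.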

Additional observations from a re-analysis of the deposited data

How the results depend on the processing

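Leaving out 1 array at a time gave 6 to 7 called members for NaCl against control, 0 to 1 for ABA against control and 4 to 5 for ABA against NaCl, and 13 to 16, 0 to 1 (1 without control replicate 3) and 9 to 11 genes of the other calcium lists. Over all genes the same fits called 4423 to 6000, 84 to 373 and 3744 to 5193. CML37 was called for NaCl in all 15 other settings and all 9 leave-one-out fits, and CML39 in 9 of 14 settings and 1 of 9 such fits. The methods' t-test after Benjamini-Hochberg adjustment called 1, 0 and 2 members in the 3 comparisons (7, 1 and 4 with limma), 2, 0 and 5 list genes (15, 0 and 11) and 594, 0 and 1219 of all genes (5293, 359 and 4625). For ABA against control, 2 members were called without scaling, 2 with slide as a random block and 0 in a fit of only the groups compared. That last fit called 217 of all genes. The lists gave 4 genes without scaling, 1 with normexp, 3 with the slide block and 1 with array weights. Over all genes, normexp called 266 and array weights 747. The lists gave 1 with the t-test unadjusted, beside 852 of all genes, and 3 at an unadjusted limma p, beside 1255. No slide held arrays of different groups, so the slide block cannot adjust for slide. Its estimated correlation was -0.34, and it called 1354 of all genes for ABA against control, where no scaling called 1386. The series table gave 34 list genes for NaCl against control and 31 for ABA against NaCl, beside 11313 and 10366 of 22816 genes. For ABA against NaCl no scaling also gave 31 list genes, beside 8926 of all genes. The cause was not tested.

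The replicate numbers did not pair the samples (same-numbered deviations correlated at -0.29 to 0.23). With the replicate block, 7, 0 and 4 members and 14, 0 and 11 list genes were called, beside 5088, 206 and 4435 of 22816 genes.

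Without scaling the median of all genes was -0.30, 0.48 and 0.78 in the 3 comparisons, and with the series table -0.95 for NaCl against control and 0.91 for ABA against NaCl. The share of calls that were higher was 32.0% and 8.75% for NaCl against control (42.8% in the main fit of quantile-normalized values). It was 95.7% without scaling for ABA against control (53.5%) and 90.8% and 92.7% for ABA against NaCl (51.5%).

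Some small differences changed sign. For ABA against control without scaling, CML9 gave 0.39, TCH2 0.17 and CML38 0.21, and CML38 ran from -0.81 to 0.099 (without control replicate 1) over leave-one-out fits. For ABA against NaCl, CML42 gave 0.69 without scaling and 0.83 with the series table, and -0.18 to 0.053 (without ABA replicate 1) in leave-one-out fits. CML43 gave -0.16 with array weights and -0.52 (without NaCl replicate 3) to 1.23 in such fits. AT3G10300, called higher in NaCl at 2.01, gave -0.76 for NaCl against control and 0.27 for ABA against NaCl with its dimmest kept probe. Of the other values of single genes, 2457 kept their side of the threshold, 288 were no longer past it and 9 were newly past it. CML8, CML39 and CML43 lie near background, which limits their comparison.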
